A study of Mus musculus with 6 samples.

Results

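Follicle homing receptors are the G protein coupled receptors that place lymphocytes within the spleen, and 5 of their genes are described here across 3 groups of mice. They were chosen by gene symbol: every probe set annotated to Cxcr5, Ccr6, Ccr7, Cxcr4 or S1pr1 was taken, which gave 6 probe sets for 5 of the 8251 genes with a single symbol in the table. No measured value entered that choice. Of the 6 probe sets, 5 lay above the intensity filter, 1 for each gene, and a second S1pr1 probe set was too dim to test.

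These receptors read gradients of signals made by other cells. CXCR5 draws B cells into follicles along CXCL13, which follicular stroma makes, and CCR7 draws lymphocytes towards the T cell zone along CCL19 and CCL21. CCR6, the receptor for CCL20, is carried by mature B cells, CXCR4 responds to CXCL12 of stroma and marrow, and S1PR1 reads sphingosine 1-phosphate, which guides exit into blood and keeps marginal zone B cells at the edge of the follicle. All 5 signal through inhibitory G proteins to the actin cytoskeleton and integrins, and RGS proteins and arrestins end the signal. Btk, a cytoplasmic kinase of the Tec family, relays signals of the B cell antigen receptor.

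RNA of whole B cells from the spleen of adult mice was hybridised to 6 Affymetrix MG_U74Av2 arrays, 2 a group. The groups were wild type CBA, Xid, which is strain CBA/N with the R28C mutation, and Btk KO, a line made by crossing Btk KO/SW129 mice to CBA for 9 generations, so that strain and Btk defect cannot be told apart. The labels name no treatment. Nothing used here says how the B cells were isolated, how old the mice were in weeks or whether an RNA came from 1 mouse or a pool, so p-values measure the spread between these arrays only. Run 1 holds the first array of each group and run 2 a later set with new mice, each run on a chip lot of its own. Per array the median scaled intensity lay between 32.5 and 37.6, and the number of arrays limits every value.

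Btk itself measured 276.1 and 173.6 on the Btk KO arrays and between 643.9 and 874.1 on the other 4, a Btk KO difference of -1.86 (limma adjusted p = 0.052, and 0.0053 with the run in the model). Of 13 B cell marker genes listed, 12 lay above the intensity filter, with Cd79a, a chain of the antigen receptor, between 3066.3 and 6004.4 and Cr2, the complement receptor, between 49.5 and 166.2. Of 17 T cell genes listed, 14 were matched and 8 lay above the filter, with Cd3e between 9.7 and 62.6. RNA quality differed for 1 array, the first of Btk KO, whose Gapdh 3' to 5' ratio was 10.4 against at most 1.61 elsewhere. No other array shared its hybridisation day. For the 5 receptors and for calls in the other gene lists, values without it are given where leaving it out changed a call, turned a direction or moved a value by over 1.5 times, from the model with the run as a term unless stated.

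Cxcr5 and Ccr6 were the members with the lowest values relative to CBA, Cxcr5 in both mutant lines and Ccr6 in Btk KO. Ccr7, Cxcr4 and S1pr1 stayed within 0.33 of CBA on the log2 scale in either line. In limma's test over 7453 probe sets, 0 of the 5 members passed an adjusted p of 0.05 in Xid or in Btk KO against CBA, where 0.0671% and 0.174% of all probe sets passed, nor in the mean of both lines (0.148%). With the run added to the model as a replicate block, Cxcr5 alone passed, in Btk KO and in the mean of both lines, where 2.23% and 1.93% of all probe sets passed (0.805% and 0.644% in the lower direction), while 0 of 5 passed in Xid against 0.483% of all probe sets. At an unadjusted p below 0.05 and without the block, Cxcr5 was lower in Xid, and Cxcr5 and Ccr6 were lower in Btk KO, against a background of 1.56% and 3.18% of all probe sets in that direction. Both were also lower at that level in the mean of both lines (2.46% of all probe sets), and Ccr6 was in Btk KO against Xid (1.37%).

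**Figure D1:**
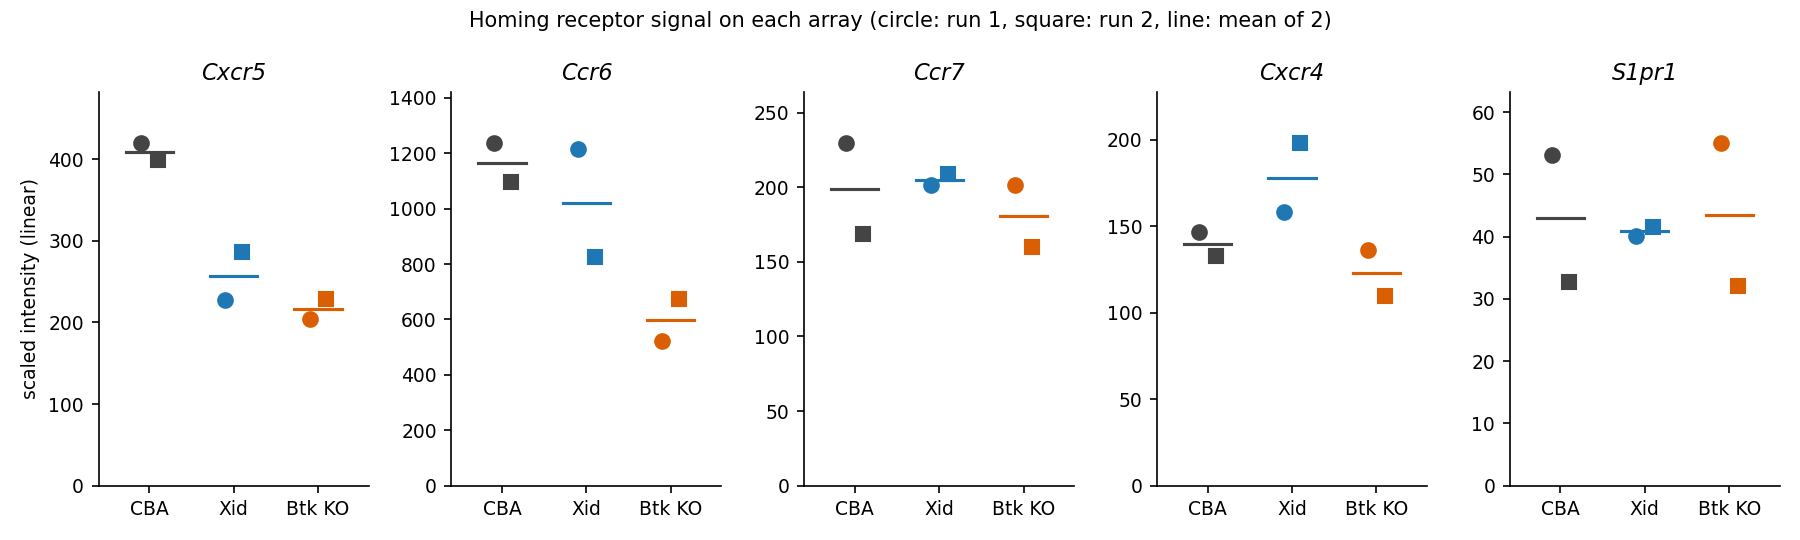
Scaled linear intensity (y axis, from 0, with a scale of its own in each panel) of the 5 tested receptor probe sets in CBA, Xid and Btk KO (x axis). Circles are run 1, squares run 2 and lines the mean of 2 arrays: for Cxcr5 all 4 mutant arrays, at most 285.7, lie below both CBA arrays, at least 399.2.

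Cxcr5, the receptor for CXCL13, measured 419.4 and 399.2 in CBA, 227.2 and 285.7 in Xid, and 204.8 and 228.7 in Btk KO. The 4 mutant arrays thus lay below both CBA arrays, as for 7.31% of all probe sets. For Xid alone the share of probe sets below CBA without overlap was 14.4%. CBA had a mean of 409 ± 14.3, Xid one of 256 ± 41.4 and Btk KO one of 217 ± 16.9 (SD, n = 2 each), so Xid stood at 62.7% and Btk KO at 53.0% of CBA. The arrays of Xid and Btk KO overlapped, and no order between the mutant lines was resolved.

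On the log2 scale, after a pseudocount of 6, the Cxcr5 difference from CBA was -0.67 ± 0.20 in Xid (SE; limma adjusted p = 0.65, and 0.23 with the replicate block). It was -0.90 ± 0.20 in Btk KO (limma adjusted p = 0.18, and 0.044 with the block). Within the runs the values were -0.87 and -0.47 in Xid, and -1.01 and -0.79 in Btk KO. For the mean of both lines the difference was -0.79 ± 0.17 (limma adjusted p = 0.20, and 0.046 with the block). Without the Btk KO array of run 1 the Btk KO value with the block was -0.89 and its call was lost (limma adjusted p = 0.13), while that of both lines was -0.78 and kept its call (0.048). Btk KO against Xid differed by -0.23, with a 95% interval of -0.70 to 0.24.

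Ccr6, the CCL20 receptor, measured 1235.6 and 1096.5 in CBA, 1216.8 and 826.9 in Xid, and 523.8 and 674.9 in Btk KO. Both Btk KO arrays were below the other 4, while Xid overlapped CBA in run 1 and lay below it in run 2. Lower without overlap was found for Ccr6 and Cxcr5 in Btk KO against CBA, 2 of 5 members, as for 16% of all probe sets. The means were 1166 ± 98.4, 1022 ± 276 and 599 ± 107 (SD, n = 2 each), which put Xid at 87.6% and Btk KO at 51.4% of CBA.

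The Ccr6 difference of Btk KO from CBA was -0.96 ± 0.25 (limma adjusted p = 0.27, and 0.088 with the block), at -1.23 in run 1 and -0.70 in run 2. It was -0.60 with the block when the Btk KO array of run 1 was left out (limma adjusted p = 0.41), a smaller value than with it. Xid differed from CBA by -0.21, with a 95% interval of -0.80 to 0.38. Between the mutant lines, Btk KO against Xid, the difference was -0.75 ± 0.25 (limma adjusted p = 0.998, and 0.49 with the block), at -1.21 and -0.29 within the runs, and -0.39 with the block when the Btk KO array of run 1 was left out. No member passed in that comparison, in which 0.0403% of all probe sets did without the block and 0.188% with it. For the mean of both lines against CBA the Ccr6 difference was -0.59 (limma adjusted p = 0.58).

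The Ccr6 gene lies on chromosome 17 between 8236041 and 8258519 (GRCm38.p6). It has 2 promoter windows in the RefSeq table of that build, each 250 bases before to 50 after a start site. The first is shown because Ccr6 and Cxcr5 were the members with low values in Btk KO, and only the former has an entry in that table, and because this window holds the octamer ATTTGCAT, the element bound by the POU factor Oct2 with its B cell coactivator. Capitals mark the octamer, which begins 68 bases before the start site. It occurs on either strand in 1.74% of 32851 promoter windows, and not in the second Ccr6 window. The Cxcr4 window, of the only other member with an entry, is set beside it. There capitals mark TATAAA, the core of the TATA box, which 13.6% of windows hold on either strand. Both motifs were picked after the sequences were read. The sequences are from the reference strain, and no value measured here bears on the motifs.
Ccr6, chr17:8235793-8236092, plus strand: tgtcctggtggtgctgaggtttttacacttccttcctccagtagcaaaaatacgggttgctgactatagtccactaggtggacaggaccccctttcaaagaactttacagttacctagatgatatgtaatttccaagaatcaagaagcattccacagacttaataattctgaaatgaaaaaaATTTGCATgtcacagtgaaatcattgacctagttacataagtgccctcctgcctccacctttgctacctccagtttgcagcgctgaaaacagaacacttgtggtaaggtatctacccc
Cxcr4, chr1:128592250-128592549, minus strand: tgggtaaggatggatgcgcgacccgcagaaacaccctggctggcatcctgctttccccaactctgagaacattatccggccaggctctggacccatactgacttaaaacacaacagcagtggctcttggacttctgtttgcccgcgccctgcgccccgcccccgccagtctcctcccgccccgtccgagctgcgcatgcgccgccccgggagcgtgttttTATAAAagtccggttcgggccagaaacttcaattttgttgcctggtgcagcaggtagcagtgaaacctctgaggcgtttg

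The Cxcr4 window is 59.3% G and C and the first Ccr6 window 42.3%, against a median of 52.7% over all windows. Oct2 and its coactivator are encoded by Pou2f2 and Pou2af1, which differed from CBA by 0.04 and 0.09 in Xid and by -0.26 and -0.02 in Btk KO. Neither passed limma's test in either comparison. The Btk KO values were not stable, at -0.615 and 0.344 with the block when the Btk KO array of run 1 was left out.

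Ccr7, the receptor that leads lymphocytes to the T cell zone, measured 229.4 and 168.6 in CBA, 201.3 and 208.9 in Xid, and 201.5 and 159.8 in Btk KO. The arrays of the 3 groups overlapped. The difference from CBA was 0.06 in Xid, with a 95% interval of -0.48 to 0.60, and -0.13 in Btk KO, with a 95% interval of -0.67 to 0.41. Without the Btk KO array of run 1 the Btk KO value was -0.29 with no run term and -0.20 with it. The CBA arrays alone spanned a larger range than the group means of 199, 205 and 181. The Xid value turned to -0.02 when each array was centred on its median, so no direction can be given for it.

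Cxcr4, the CXCL12 receptor, measured 146.7 and 132.8 in CBA, 158.1 and 197.9 in Xid, and 136.2 and 109.8 in Btk KO. Both Xid arrays were above the CBA arrays, as for 17% of all probe sets in that direction, and Btk KO overlapped CBA. The difference from CBA was 0.33 ± 0.22 in Xid, with a 95% interval of -0.19 to 0.85, and -0.18 ± 0.22 in Btk KO, with one of -0.70 to 0.34. Without the Btk KO array of run 1 the Btk KO value was -0.37. Both Btk KO arrays lay below both Xid arrays, and that difference was -0.51 ± 0.22 (limma adjusted p = 0.998, and 0.63 with the block). Lower without overlap was thus found for Ccr6 and Cxcr4 in Btk KO against Xid, 2 of 5 members, as for 12.3% of all probe sets. Against Xid it was -0.70 without that array (limma adjusted p = 0.87). Both Xid arrays above and both Btk KO arrays below the CBA mean was found for Cxcr4 alone of the 5, and for 2.28% of all probe sets.

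S1pr1, the sphingosine 1-phosphate receptor of lymphocyte exit, was dim. Its brighter probe set measured 53.2 and 32.7 in CBA, 40.1 and 41.6 in Xid, and 55.0 and 32 in Btk KO. That probe set belongs to the class that can read several related transcripts. The groups overlapped, and the CBA and Btk KO arrays split by run, high in run 1 and low in run 2. The difference from CBA was -0.03 in Xid, with a 95% interval of -0.85 to 0.79, and 0.01 in Btk KO, with one of -0.81 to 0.83. Without the Btk KO array of run 1 the Btk KO value was -0.33 with no run term and -0.19 with it. Its other probe set read between 1.1 and 13.8, below the filter at an intensity of 19.8, and carries no comparison.

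**Figure D2:**
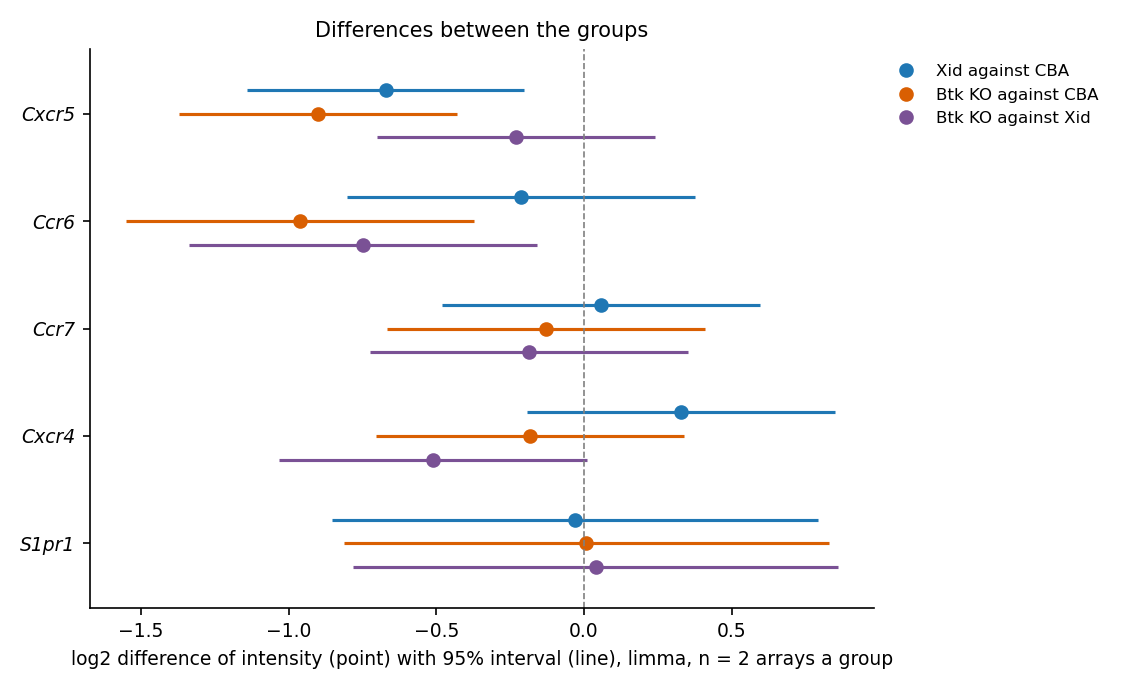
Log2 difference of intensity (x axis) for each receptor (y axis) in 3 comparisons; points are limma estimates without the block and lines their 95% intervals, unadjusted over genes (n = 2 arrays a group). The Cxcr5 intervals against CBA, -1.14 to -0.20 in Xid and -1.37 to -0.43 in Btk KO, and the Ccr6 intervals of Btk KO, -1.55 to -0.37 against CBA and -1.34 to -0.16 against Xid, lie below 0.

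Genes typical of B cells were lower as well, most in Btk KO. Of 12 measured markers, 10 lay below CBA without overlap in Btk KO and 4 in Xid, where 16% and 14.4% of all probe sets did. Their median difference was -0.58 and -0.19, against 0.01 over all probe sets in each. Without the Xid array of run 2 the Xid median was -0.04, and without the Btk KO array of run 2 that of Btk KO was -0.39. None passed limma's test in either line (0 with and without the block). Cd72, an inhibitory co-receptor, measured 439.2 and 521.4 in Btk KO and 1093.9 and 818.6 in CBA, a difference of -0.98 (limma adjusted p = 0.19), and of -0.70 without the Btk KO array of run 1. Cd22, another, differed by -0.66 and Ms4a1, which encodes CD20, by -0.27. In bulk RNA, fewer B cells and less RNA per B cell cannot be told apart.

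The receptors were therefore also set against the mean log2 value of these 12 markers on the same array, as a description. Relative to CBA, Cxcr5 then stood at -0.69 and -0.10 in Xid and at -0.56 and -0.25 in Btk KO, with CBA at -0.06 and 0.06. All 4 mutant arrays were still the lower ones, by mean differences of -0.39 and -0.41. Ccr6 stood at 0.21 and -0.08 in Xid and at -0.73 and -0.21 in Btk KO, a mean of -0.47 for Btk KO. The subtraction raises every gene alike, by the marker means' own distance from CBA, so a gene near 0 before it turns positive. The other members did, Ccr7 at 0.34 in Xid and 0.36 in Btk KO, Cxcr4 at 0.61 and 0.31, and S1pr1 at 0.25 and 0.50.

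**Figure D3:**
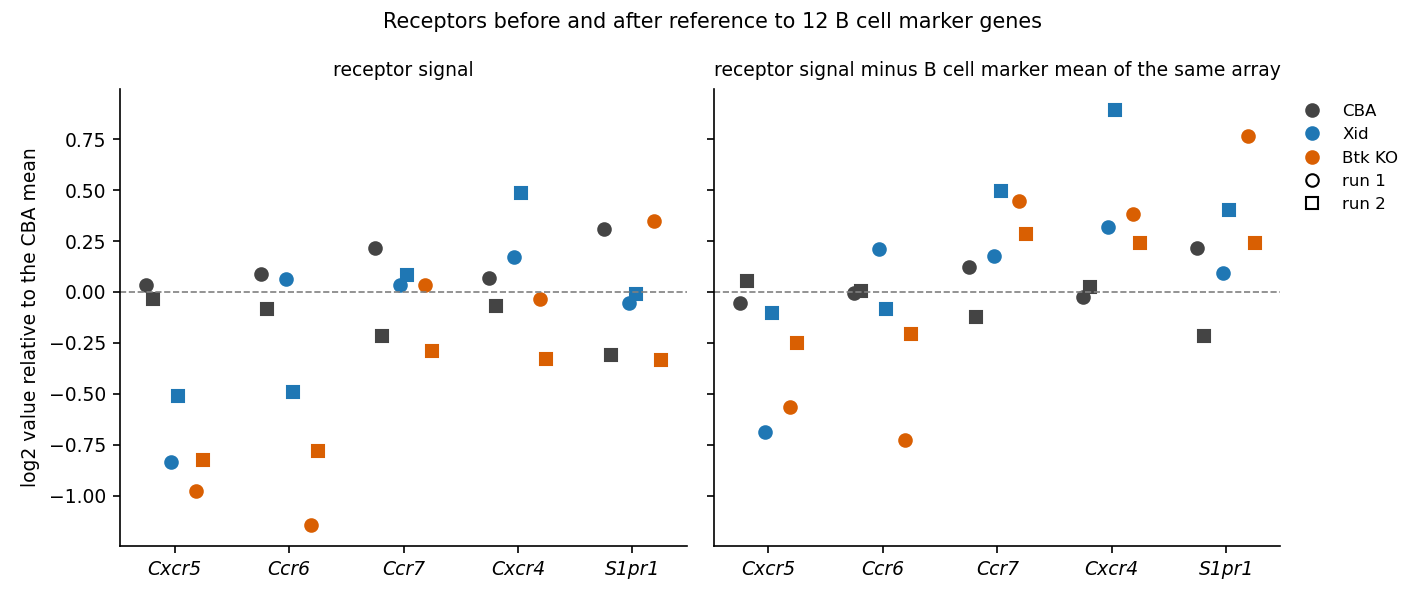
Log2 value of each receptor on each array relative to the CBA mean (left) and the same after subtraction of the mean log2 value of 12 B cell marker genes (right); x axis receptors, colours groups, circles run 1 and squares run 2. Cxcr5 is below CBA on all 4 mutant arrays in both panels, while Cxcr4 stands above CBA on all 4 mutant arrays in the right panel only.

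Transcripts of macrophages and monocytes were higher in both lines. The sums for genes of neutrophils, NK cells and erythroid cells were highest in Btk KO. Summed over 13 macrophage and monocyte genes, intensity was 2677.8 and 3970.2 in CBA, 6031.8 and 9128.0 in Xid, and 9701.5 and 12845.4 in Btk KO. In limma's test 0 of the 13 rose in Xid and 3 in Btk KO (0.0671% and 0.174% of all probe sets were called). With the replicate block 6 rose in Xid and 10 in Btk KO (0.483% and 2.23% of all probe sets were called), and 8 and 9 without the Btk KO array of run 1. For 7 neutrophil genes the sum was 182.3 and 232.8 in CBA, 270.7 and 247.7 in Xid, and 862.8 and 1575.5 in Btk KO. In Btk KO 2 of them rose, or 4 with the block, where 0.174% and 2.23% of all probe sets were called. In Xid 0 of them rose with or without the block. T cells and dendritic cells can also carry Ccr7, Cxcr4, S1pr1 or Ccr6. The 8 T cell genes above the filter summed to 770.9 and 1046.1 in CBA, 943.2 and 998.5 in Xid, and 954.6 and 1165.2 in Btk KO. Cd2 made up much of that sum and differed by -0.41 in Btk KO, while the median of the 8 was 0.30 in Xid and 0.48 in Btk KO. With the block 2 of the 8 rose in Btk KO, Zap70, a T and NK cell kinase, by 1.42 and Il7r, the interleukin 7 receptor, by 1.23 (limma adjusted p = 0.012 and 0.0499). With the Btk KO array of run 1 left out, the call of Il7r was lost (limma adjusted p = 0.13) and that of Zap70 was not (0.038). The 6 dendritic cell genes summed to 1620.3 and 1756.9 in CBA, 2259.5 and 2316.4 in Xid, and 2747.7 and 2358.9 in Btk KO. Irf8 made up most of that sum, at 1096.2 and 1056.4 in CBA, 1588.4 and 1444.4 in Xid, and 2144.5 and 1499.9 in Btk KO. The median of the 6 was 0.41 in Xid and 0.48 in Btk KO (0.08 without the Btk KO array of run 2). Ccl22 was lower, by -0.38 and -0.59, and Flt3 higher, by 0.39 and 0.77. In either line 0 of the 6 passed with or without the block. Erythroid genes (7) summed to 5579.3 and 7601.6 in CBA, 9066.1 and 7603.3 in Xid, and 21849 and 10542.2 in Btk KO. Their median difference was 0.29 in Xid and 1.46 in Btk KO, and 0 passed in either line with or without the block. With the block and without the Btk KO array of run 1 the Btk KO median was 0.91. NK cell genes (8) summed to 341.8 and 480.7 in CBA, 527.2 and 798.6 in Xid, and 808.3 and 1584.0 in Btk KO. Their median difference was 0.52 in Xid and 1.37 in Btk KO. Without the block 0 rose in either line, and with it 0 rose in Xid and 4 in Btk KO (0.483% and 2.23% of all probe sets were called). Not all of these Btk KO calls were kept without the Btk KO array of run 1, where the Btk KO median with the block was 1.51. Sums of stromal and endothelial genes (6) ranged from 372.7 to 482.5 and those of plasma cell genes (4) from 1092.8 to 2044.1. The part of these cells in the receptor values was not tested.

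Few ligand genes could be followed. Of the 13 genes listed for ligands and their supply, 6 were matched and 3 lay above the filter. Cxcl13, the CXCR5 ligand, read at most 18.4 on any array. Cxcl12, the CXCR4 ligand, has 3 probe sets, and the one with the highest mean over all arrays is given, a choice made on these values. It read 4.2 and 4.0 in CBA, 15.4 and 4.5 in Xid, and 29.5 and 21.0 in Btk KO. Both genes fell below the filter, which uses the mean of all arrays, and were not tested. The ligands of CCR6 and CCR7 were not analysed here. Sphk2, a kinase that makes sphingosine 1-phosphate, measured 131.3 and 103.4 in CBA and 116.8 and 107.4 in Btk KO. Sgpl1, the lyase that breaks it down, measured 171.5 and 159.5 in CBA and 163.5 and 169.6 in Btk KO. Plpp3, a phosphatase of lipid phosphates, differed by 0.32 in Xid and 0.12 in Btk KO, and 0 of these 3 passed limma's test in either line, with or without the block.

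Among other chemokine receptors, 10 of 16 matched genes lay above the filter and 0 passed without the block. With the block 1 fell in Xid and 3 rose in Btk KO, where 0.483% and 2.23% of all probe sets were called. Without the Btk KO array of run 1 the call in Xid was kept and all 3 in Btk KO were lost. Ccr1, an inflammatory receptor of myeloid cells, measured 100.5 and 99.8 in CBA, 21.1 and 30.9 in Xid, and 31.7 and 45.8 in Btk KO. Its difference was -1.75 in Xid (limma adjusted p = 0.044 with the block) and -1.26 in Btk KO (0.059 with the block). Ackr2, a scavenger of inflammatory chemokines, was lower on all 4 mutant arrays, at 14.8 to 26.9 against 65.6 and 81.6, as for 7.31% of all probe sets. Its differences were -1.59 and -1.64 (limma adjusted p = 0.16 and 0.060 with the block). Ackr3, a scavenger of CXCL12, rose in Btk KO with the block, from 23.9 and 17.6 in CBA to 77.3 and 62.8, by 1.51 (limma adjusted p = 0.033 with the block and 0.15 without it). Ccr3, of eosinophils, and Ccr2, of monocytes, also rose in Btk KO with the block, by 1.48 and 1.13 (limma adjusted p = 0.040 and 0.029 with the block). The values were 1.56 for Ackr3, 1.59 for Ccr3 and 1.21 for Ccr2 (limma adjusted p = 0.14, 0.14 and 0.069) without the Btk KO array of run 1. Several of these CBA means lie near the filter at 19.8, where the log2 size depends on the pseudocount.

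**Figure D4:**
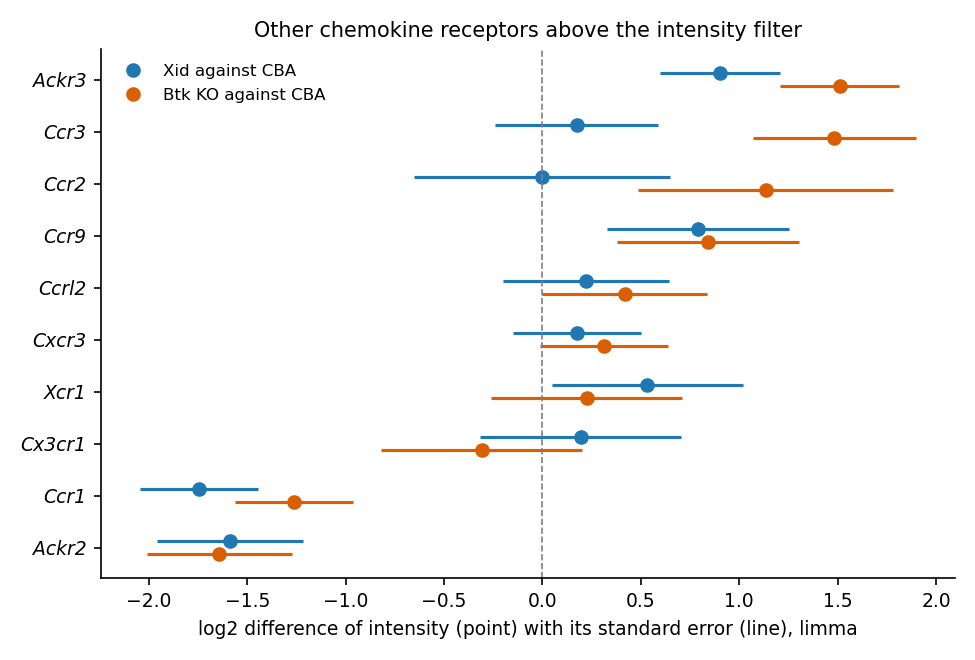
Log2 difference of intensity from CBA (x axis) for the 10 other chemokine receptors above the filter (y axis); points are limma estimates without the block and lines their standard errors, for Xid and Btk KO, which share the CBA arrays. Ccr1 and Ackr2 lie below 0 in both lines. Ackr3 lies above 0 in both lines, as do some of the other receptors drawn, and Ackr3, Ccr2 and Ccr3 lie above 1 in Btk KO alone.

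Of 13 further positioning receptors, 9 were matched and 6 measured, and 0 passed in either line with or without the block. S1pr3, of marginal zone B cells, measured 151.1 and 190.2 in CBA, 83.5 and 98.3 in Xid, and 86.9 and 134.9 in Btk KO. All 4 mutant arrays were below CBA, as for 7.31% of all probe sets, with differences of -0.86 and -0.62. Cnr2, the cannabinoid receptor of B cells, differed by -0.12 in Xid and by -0.51 in Btk KO, where the run 1 array read 31.8 and the run 2 array 78.8, and by -0.01 there without the run 1 array. S1pr4, another receptor of the S1pr1 family, differed by 0.02 and -0.44, and by -0.22 in Btk KO without the run 1 array.

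Signal transducers and terminators showed no call. All 21 measured genes for G proteins, arrestins and RGS proteins failed limma's test in both lines (0 with and without the block), with medians of 0.01 in Xid and 0.02 in Btk KO. Gnai2, the main inhibitory G protein subunit of lymphocytes, measured 4386.6 and 4176.2 in CBA and 5298.2 and 3935.1 in Btk KO. Rgs10 measured 136.1 and 138.8 in CBA, 51.3 and 82.5 in Xid, and 94.2 and 90.6 in Btk KO. It was lower on all 4 mutant arrays, as for 7.31% of all probe sets. Rgs2 measured 326.2 and 235.6 in CBA, 639.3 and 397.8 in Xid, and 584.8 and 281.4 in Btk KO, with differences of 0.85 and 0.54 that did not pass. The Xid difference passed with the block only when the Btk KO array of run 1 was left out (limma adjusted p = 0.047), and the Btk KO value was then 0.30.

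Effectors of migration had a median of -0.18 in Xid and -0.30 in Btk KO over 21 measured genes (-0.05 in Xid without its run 2 array, and -0.20 in Btk KO without its run 1 array), of which 0 passed in either line with or without the block. Coro1a, an actin regulator needed for lymphocyte traffic, measured 1998.6 and 2061.7 in CBA and 1235.0 and 1452.4 in Btk KO, a difference of -0.60 (limma adjusted p = 0.42). Of 9 adhesion molecules of homing, 0 passed in either line, and Selplg, which encodes the P-selectin ligand, had the highest difference in Btk KO at 0.70. Among 13 measured regulators of the receptors 0 passed. Klf2, a transcription factor that drives S1pr1, measured 241.4 and 196.2 in CBA, 627.6 and 178.2 in Xid, and 370.8 and 141.0 in Btk KO. It was high in run 1 of both mutant lines and below CBA in run 2 of both. Ltbr, the lymphotoxin beta receptor of stroma, and Ltb, its ligand on B cells, differed by 0.46 and -0.26 in Btk KO.

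The genes whose log2 values followed each receptor most closely over the 6 arrays were taken from 6670 probe sets with 1 symbol. The arrays share groups and runs, and with 6 points high correlations are common, so these are descriptions. For Cxcr5 they were Ephx1, Cad and St13 (Pearson r between 0.980 and 0.983), with 11 probe sets above 0.95. Ephx1, the microsomal epoxide hydrolase, read 142.4 and 230.2 in CBA and at most 41.5 on the mutant arrays. For Ccr6 they were Rpl10a, Aldh7a1 and Mettl5 (r between 0.982 and 0.987), with 24 probe sets above 0.95. Ccr7 was followed by Iqgap1, Gucd1 and Zfp277 (0.978 to 0.985), Cxcr4 by Immp1l, Irf9 and Dlk1 (0.9468 to 0.9504) and S1pr1 by Oga, Rae1 and Ido1 (0.986 to 0.992). Between members, r was 0.67 for Cxcr5 with Ccr6, 0.85 for Ccr7 with S1pr1 and 0.68 for Ccr7 with Cxcr4, and between -0.14 and 0.33 for the other pairs.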

How the data were processed

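The authors deposited 1 linear intensity per probe set and array, and the method that summarised the probes is not given in the sources used here. These intensities were already scaled, since the 2% trimmed mean was 100.06 on all 6 arrays, and no detection calls come with them. The chip type, lots and days are per the file headers, whose other settings were not used. Symbols came from the platform annotation and were updated through the gene number in a table of GRCm38.p6 (10817 of 10833 single symbols).

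Intensities were put on the log2 scale after a pseudocount of 6 was added, and probe sets with a mean below the 40th percentile were left out, which kept 7453 of 12422. One limma model of 3 group means (limma 3.58.1, R 4.3.3, eBayes with intensity trend, 3 residual degrees of freedom) gave all comparisons, two-sided and adjusted by Benjamini-Hochberg over all kept probe sets. The model was checked on simulated data. Where a gene had several kept probe sets the brightest was used in lists.

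The replicate numbers pair the arrays, as the design text describes 2 sets of mice and each set has its own lot. The pairing is incomplete by day. The arrays of run 2 shared a hybridisation day, while in run 1 the Btk KO array had a day of its own. Deviations from the group mean correlated within a run at 0.31, 0.37 and 0.44. A model with this replicate block is an alternative, printed where it changes a call. The members, the lists, the alternatives and the rule for naming genes were chosen with earlier results of these data known. That rule names all members, up to 4 genes a list with the smallest p for the mean of both lines, any ligand, G protein, arrestin, RGS and regulator gene, and the 3 genes closest in pattern. Btk, Cd79a, Ms4a1 and Cd3e were named besides as checks, and Ccr2 after its values were seen. Cr2 was also named outside that rule. Figures were drawn with matplotlib 3.10.9.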

Additional observations from a re-analysis of the deposited data

Results flagged for a closer look

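For Cxcr4 both Xid arrays were above the CBA mean of 139.8 and both Btk KO arrays below it, as for 2.28% of all probe sets. The Btk KO array of run 1, at 136.2, lay between the CBA arrays at 132.8 and 146.7, and against the B cell marker mean all 4 mutant arrays were above CBA (0.61 in Xid and 0.31 in Btk KO). The difference itself, Btk KO against Xid, was -0.511 on the log2 scale, in the same direction in both runs (-0.21 and -0.82). It did not pass (limma adjusted p = 0.998, and between 0.612 and 0.9998 over the alternatives). Groups of 2 arrays were too small for a test of single outlying arrays.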

How the results depend on the processing

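The Cxcr5 differences from CBA and the Ccr6 difference of Btk KO from CBA kept their direction under every alternative run: the replicate block, the block without the Btk KO array of run 1, quantile normalization, median centring, pseudocounts of 1 and 32, no filter, a filter at the 60th percentile, no trend, the compared groups alone and each array left out. The block changed the count of members called from 0 to 1 in Btk KO and from 0 to 1 in both lines (Cxcr5 at -0.900 and -0.786), and for both lines it was also 1 without the Btk KO array of run 1; it changed no other call of a member. Over the alternatives the adjusted p of Cxcr5 ran from 0.044 to 0.72 in Btk KO, from 0.046 to 0.92 in both lines and from 0.13 to 0.9999 in Xid, and that of Ccr6 in Btk KO from 0.088 to 0.76. Median centring moved all differences of Btk KO from CBA by -0.11 and those of Btk KO from Xid by -0.035.

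Differences near 0 changed sign, and the cause was not tested. With median centring Ccr7 in Xid was -0.020, S1pr1 in Btk KO -0.105 and Cxcr4 in both lines -0.022, and quantile normalization gave S1pr1 in Btk KO -0.077. With the block and without the Btk KO array of run 1, S1pr1 was -0.191 against CBA and -0.160 against Xid, and Cxcr4 in both lines -0.022. With each array left out in turn, Ccr6 in Xid ran from -0.490 to 0.064, Ccr7 in Xid from -0.157 to 0.274, in Btk KO from -0.344 to 0.087 and in both lines from -0.251 to 0.180, and Cxcr4 in both lines from -0.005 to 0.152. S1pr1 ran from -0.338 to 0.276 in Xid, from -0.333 to 0.350 in Btk KO, from -0.302 to 0.381 between the lines and from -0.318 to 0.295 in both lines. Over all probe sets the counts called were 5 in Xid, 13 in Btk KO, 3 between the lines and 11 in both lines, and ran from 0 to 76, 166, 29 and 165. The leave-one-array-out fits assume that a lone array varies like the other groups. The comparison of both lines already uses all groups, so the fit of the compared groups alone was not run for it, and the stricter filter leaves out S1pr1.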
